A study of Rattus norvegicus with 22 samples.

Results

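Cytosolic ribosomal proteins were followed in the liver of rats fed with control diet or BASE-diet for 3 or 14 months. The set was chosen by gene name alone. It holds every name on the array that is Rpl or Rps followed by a digit, with Rplp0, Rplp1, Rplp2 and Rpsa, and without the Rps6 kinases. This gave 87 names of the 26276 on the array, 53 with a large-subunit (Rpl) and 34 with a small-subunit (Rps) prefix. Relatives such as Rpl7l1, pseudogene names and Rps19bp1, a protein that binds Rps19, are thus counted among the 87 names. All 46 canonical large-subunit names and all 31 canonical small-subunit names were among them. Where a gene had several probes, the brightest one in Cy5 represented it. For 84 of the 87 genes, 51 large and 33 small, this probe was bright enough to be tested, and all 84 were well above background on all 22 arrays.

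Male Sprague-Dawley rats, 8 weeks old at the start, were kept in individual cages on semi-synthetic diets. Control rats were killed after 3 months (CD 3, 5 arrays) or 14 months (CD 14, 6 arrays). In the BASE-diet, salmon fat took the place of much of the lard, and a hydrolysed linden extract, pumpkin puree and 2 probiotic strains were added; rats on it were killed after 3 months (BD 3, 5 arrays) or 14 months (BD 14, 6 arrays). Each array held the RNA of 1 liver in Cy5, by the labels, against 1 common reference in Cy3 made from healthy 10-week rats outside the feeding groups, whereas the methods give Cy3 to control rats. The labels were followed, and no dyes were swapped. Of 24 arrays made, 1 of CD 3 and 1 of BD 3 were rejected by the study. Every value below is the log2 ratio of a rat to this reference, or a difference of such ratios. A difference of 1 is a 2-fold change. Time and age rose together in this design and cannot be told apart.

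The cytosolic ribosome is built of a large and a small subunit, in which ribosomal RNAs are joined by these proteins, most of them in a single copy and the acidic stalk proteins in more. Their genes lie scattered over the chromosomes but are expressed at high, matched levels, and most of their mRNAs begin with a 5′ terminal oligopyrimidine tract (5′ TOP), a C followed by further pyrimidines, through which mTOR signalling controls their translation. In liver, which secretes most plasma proteins, ribosome content is known to follow feeding and protein supply. An mRNA ratio as measured here does not show translation or the amount of ribosomes.

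Sequence at the start sites was taken from RefSeq (build GRCr8), where 65 of the 84 tested genes had 66 annotated starts. A C followed by at least 4 pyrimidines lay exactly at 24 of these starts (36.4%), against 2.63% of all 33469 annotated starts. Within 5 bases of the start it was found at 41 (62.1%), against 17.0% of all. The windows below run from 10 bases before the start to 20 bases from it, 5′ to 3′ on the coding strand. Capitals mark the C and the pyrimidine run at the annotated start. The windows show a run of the greatest length in the set (12 bases in Rpl10, as also in Rpl31 and Rpl37a). They also show members whose values are described below, and 2 members with no such run at the annotated start.
Rpl10: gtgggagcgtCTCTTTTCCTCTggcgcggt
Rplp0: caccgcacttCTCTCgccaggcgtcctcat
Rplp1: cgcatgtgatCCTTTCCTCagctgccgcca
Rpl28: cccctagtgtCTTTCTTTCCgtctccggcc
Rpl22: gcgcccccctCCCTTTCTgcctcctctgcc
Rps26: ccgccgggtcCTCTTTCgagtcttggctcc
Rps27: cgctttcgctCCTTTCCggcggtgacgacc
Rps12: gaagcccagcagagcgcttaaataccgtca
Rpl22l1: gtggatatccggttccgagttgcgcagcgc
In GRCr8 these windows are chrX:157205840-157205869 (Rpl10), chr12:46718371-46718400 (Rplp0), chr8:71290853-71290882 (Rplp1), chr1:78083513-78083542 (Rpl28), chr5:168117951-168117980 (Rpl22), chr7:1643385-1643414 (Rps26), chr2:177964587-177964616 (Rps27), chr1:23500065-23500094 (Rps12) and chr2:113683186-113683215 (Rpl22l1). The strand is minus for Rplp0, Rplp1, Rpl28, Rps26 and Rps27 and plus for the others. Further letters were searched on both strands from 250 bases before to 50 after each start. CCGGAAG, a core that ETS factors bind, was in 31.8% of the members' windows and 8.75% of all. GGGCGG, an Sp1 core, was in 59.1% against 33.1%, AAGATGG in 15.2% against 7.01%, and TATAAA in 10.6% against 14.2%. The reverse strand of CCGGAAG begins with a C and 4 pyrimidines, so that a start can count under both.

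The array reads these mRNAs with 60-base probes, several of which are close to other genes. The probes of 26 tested members shared a run of 25 to 52 bases with 38 probes of another name, none of them a member. Across the 22 arrays the ratios of such pairs had a median r of 0.966, and a member and its near copy cannot be told apart there. The first 30 shared bases are given for 3 members whose differences are described below, and for Rpl19, where the near copies went the other way.
Rplp1: gcaaagaaggaagaatctgaggaatccgag
Rps6: tattgctctgaagaagcaacgcactaagaa
Rps24: cctttatgagaagaaaaagacctcccgcaa
Rpl19: tggatcagtcattaaaataaaacaagcctt
The shared run was 49 bases for Rplp1 (r of 0.97 with the other probe), 46 for Rps6 (r of 0.97) and 39 for Rps24 (r of 0.98). For Rpl19 the run shown was 30 bases, with r of -0.71, and 2 further probes shared 31 and 29 bases with r of -0.48 and -0.53. On the rn4 build of the array files the probes lie at chr8:66046260-66046319 (Rplp1), chr5:106165769-106165828 (Rps6) and chr16:45995-46054 (Rps24). A second probe of another name shared 26 bases with Rps24 (r of 0.59). The probes of other members described below lie at chr1:22266929-22266988 (Rps12), chr7:1920388-1920447 (Rps26), chr2:182451978-182452037 (Rps27), chr1:67770003-67770062 (Rpl28), chr1:83463220-83463279 (Rps16) and chr14:2401385-2401444 (Rpl5).

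Some arrays stood apart before any comparison. The 22 arrays lay on 5 slides, here called A to E. Slide A held BD 3 rats 3 to 5 and CD 14 rats 1 to 3, and slide B held CD 3 rat 1 and BD 3 rats 1 and 2. Slide C held all 6 BD 14 rats with CD 14 rats 4 and 5, slide D CD 3 rats 2 to 4, and slide E CD 3 rat 5 and CD 14 rat 6. Spots well above background in Cy5 made up 52.4% to 93.6% of each array, lowest on CD 3 rat 4. On CD 3 rat 1 and CD 14 rat 1, over 4% of the spots were non-uniform and were left out. All 10 hepatocyte markers fixed for the tissue check, such as Alb and Ttr, were well above background on all 22 arrays, while none of 5 pancreas markers passed the detection filter.

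Ribosomal protein probes were among the brightest on the array. Their median log2 Cy5 signal was 14.7, against 7.72 for the other tested probes, and 68 of the 84 lay in the brightest 5%. Signal also depends on the probe, so it gives no order of mRNA levels between members. The dimmest probes were those of Rpl15 (7.04), Rpl10l (9.37) and Rpl7l1 (9.82). The other 3 of the 87 genes, Rpl3l, Rps19bp1 and Rpl27-ps1, were well above background on 2, 8 and 5 arrays and were not tested. Rpl3l is a muscle paralogue of Rpl3, Rps19bp1 a protein that binds Rps19, and Rpl27-ps1 has the name of a pseudogene. Rpl12-ps1 and Rps2-ps7, which were tested, have such names too.

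The members differed little from the reference and from rat to rat. Their mean log2 ratio over the 22 arrays ran from -0.40 (Rpl18) to 0.55 (Rpl10l), and 56 of the 84 means were above 0. After Rpl18 the lowest were Rplp1 (-0.39 ± 0.19, SD, n = 22) and Rpl22l1 (-0.38 ± 0.41), and after Rpl10l the highest were Rpl23a (0.53 ± 0.45) and Rpl15 (0.39 ± 0.54). The SD within groups had a median of 0.21 over the members and 0.53 over the other tested probes. Among probes with a log2 Cy5 signal of at least 12 it was 0.21 for 79 members and 0.31 for 2178 others. Among the other probes this SD was lowest at a log2 Cy5 signal of 13 to 14 (median of 0.28) and higher above and below it. Most members lay below the median of other probes as bright, but Rpl5 lay far above it. Rps15 had the smallest SD within groups (0.10), and Rpl5 (0.59), Rpl15 (0.55) and Rps2-ps7 (0.53) the largest.

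**Figure D1:**
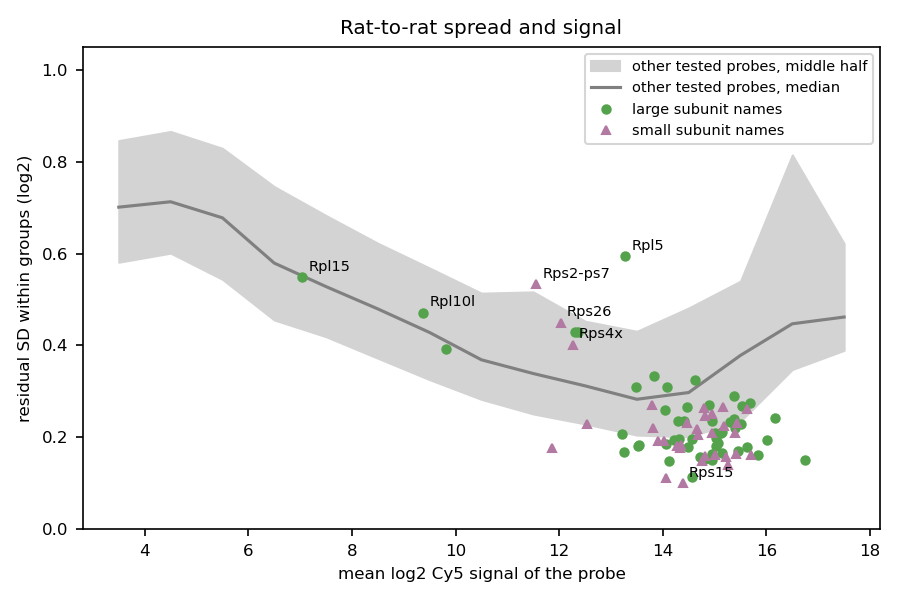
SD of the log2 ratio within groups (y axis) against the mean log2 Cy5 signal (x axis) for each of the 84 members, with large-subunit names as circles and small-subunit names as triangles. The line and band give the median and the interquartile range of the other tested probes; most members lie at the bright end at about 0.21, and Rpl5, Rpl15 and Rps2-ps7 lie highest.

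From array to array the median of the members varied within a narrow range. The median of the 84 members was lowest on BD 3 rat 3 (-0.16) and highest on CD 14 rat 3 (0.26). In CD 3 the 5 array medians were -0.15, -0.12, 0.09, 0.16 and 0.01. In BD 3 they were 0.09, -0.10, -0.16, 0.12 and 0.03. The 6 medians of CD 14 ran from -0.07 through a median of 0.10 to 0.26, and those of BD 14 from -0.07 through 0.01 to 0.25. All 4 groups thus overlapped. Large-subunit and small-subunit medians of the same array differed by little, for example 0.27 and 0.26 on CD 14 rat 3 and 0.25 and 0.25 on BD 14 rat 6. The widest gap between the subunits was on CD 3 rat 4 (0.19 and 0.06).

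CD 3 rat 4 also had the widest scatter among members. The SD over the 84 members on that array was 0.63, against 0.20 to 0.38 on the other 21 arrays. Of its members, 7 were more than 2-fold from the reference, and no other array had more than 3. Rpl5 stood at -2.08, Rpl7l1 at -1.74, Rps4x at -1.25, Rpl15 at 1.92 and Rpl23a at 1.47 on it. Scatter was wide on this array over other bright probes too (SD of 1.14). For several members described below the value without it is also given.

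**Figure D2:**
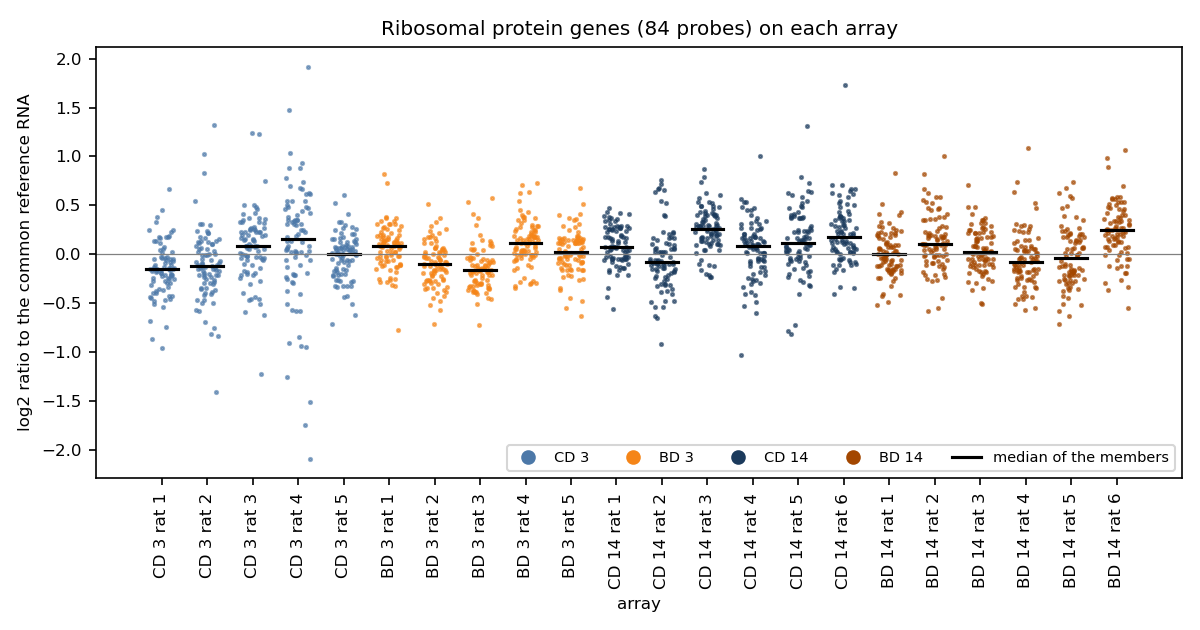
Log2 ratio to the common reference (y axis) of the 84 members on each of the 22 arrays (x axis), with 1 point per gene, colours for the groups and a line at the median. The medians stay between -0.16 and 0.26, and the points of CD 3 rat 4 spread most widely.

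Pairs of members had a median correlation of 0.29 over the 22 arrays (3486 pairs), against 0.01 for pairs of other bright probes. All arrays share the reference, and some share a slide, so this describes these arrays only. Probes of 1 and the same member had a median r of 0.74 (81 pairs). The most alike pairs were Rpl5 and Rps4x (r of 0.94), Rpl9 and Rps3 (0.93) and Rpl27 and Rpl37a (0.91). CD 3 rat 4 holds the lowest value of both Rpl5 and Rps4x. Rpl34, a large-subunit protein, followed the median of the other members most closely (r of 0.87). Rpl19 and Rps2-ps7 (both -0.22), Rps4x (-0.16) and Rpl5 (-0.12) did not follow it.

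Across all comparisons, no member passed limma at a Benjamini-Hochberg adjusted p of 0.05 over the 19434 tested probes. The smallest adjusted p of a member was 0.30, for 14 against 3 months on control diet. Among all probes the 4 comparisons and the interaction of diet and time also had no call, and the moderated F test over the 4 groups had 5. These counts over all probes moved with the processing. Without CD 3 rat 5 they were 93 for diet at 3 months, 205 for time on control diet and 140 for the F test. With the Cy5 channel alone they were 262, 13 and 185 in the same order. For time on BASE-diet the count was 46 with Cy5 alone and 99 with array weights. Counts at an unadjusted p of 0.05 are given next, each beside the percentage of all tested probes past the same limit. Animals differed between the groups, and the 4 comparisons share groups in pairs, so their values are not independent of each other.

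At 3 months the set as a whole was balanced around 0. The median difference of BD 3 from CD 3 was 0.01, beside 0.03 over all probes, with 44 members higher and 40 lower. With the Cy5 channel alone 32 were higher (median of -0.06). With the slide as a block 65 were, with a median of 0.15 that was also 0.15 over all probes. Within slide B, which holds 2 BD 3 rats and 1 CD 3 rat, the median was 0.13 beside 0.26 over all probes, with 63 higher. Leaving out 1 array moved the median between -0.04 (without CD 3 rat 1) and 0.05 (without BD 3 rat 3). The interquartile range of the members lay between -0.11 and 0.14. In 81 of 84 members the 95% interval stayed within a 2-fold change either way, as it did for 54.1% of all probes. At an unadjusted p of 0.05, 4 members were higher, or 4.76% of them, beside 4.99% of all probes, and none was lower, beside 2.11%. They were Rps26, Rps12, Rpl12 and Rplp1. In no member did the groups fail to overlap, beside 0.515% of all probes higher and 0.242% lower.

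Rps12, a small-subunit protein, had the smallest p among the members in this comparison. It stood at -0.25, -0.83, -0.62, -0.58 and -0.22 in CD 3 and at 0.13, -0.34, -0.07, 0.28 and 0.12 in BD 3. In CD 14 it ran from -0.38 through a median of 0.07 to 0.54, and in BD 14 from -0.16 through -0.05 to 0.14. Of the 5 BD 3 rats, 4 lay above every CD 3 rat. The difference at 3 months was 0.52 ± 0.19 (SE, limma, unadjusted p = 0.011, adjusted p = 0.53), and the second probe of the gene gave 0.54. The CD 3 rats of slide D had the 3 lowest values of Rps12, and CD 14 was above 0 on slide A and below 0 on slide C. On slide C all 6 BD 14 rats lay above both CD 14 rats. With the slide as a block the difference was 0.06, and within slide B it was 0.15.

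Rps26, which lies at the mRNA exit of the small subunit, had the largest difference at 3 months. Its values were 0.25, -1.41, -1.22, -0.90 and -0.26 in CD 3 and 0.31, -0.08, -0.36, -0.33 and 0.11 in BD 3. The 3 values under -0.8 in CD 3 were those of slide D, and the 2 other CD 3 rats lay among the BD 3 rats. In CD 14 the 2 rats of slide C stood at -1.03 and -0.79 and the other 4 between -0.24 and 0.31, while BD 14, all on slide C, ran from -0.55 to -0.32. The difference was 0.64 ± 0.28 (SE, limma, unadjusted p = 0.035, adjusted p = 0.67), but -0.0023 with the slide as a block and -0.14 within slide B. Slide and diet overlap only on slide B at 3 months, and the part of the slide in these values was not tested further.

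Rplp1, the acidic stalk protein that helps to recruit elongation factors, stood at -0.46, -0.75, -0.59, -0.84 and -0.32 in CD 3. In BD 3 its values were -0.25, -0.26, -0.30, -0.31 and -0.34, the narrowest spread of the 4 groups. The groups overlapped by 1 rat of each. The difference was 0.30 ± 0.14 (SE, limma, unadjusted p = 0.048, adjusted p = 0.69) and 0.15 with the slide as a block. Without CD 3 rat 4 it was 0.24 (limma, unadjusted p = 0.11). Rpl12, at the base of the stalk, was 0.38 ± 0.18 higher (SE, limma, unadjusted p = 0.043, adjusted p = 0.68), and its second probe gave 0.39. Rplp0, the stalk anchor (0.02 ± 0.18), and Rplp2, the other acidic protein (0.01 ± 0.17), were near 0.

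Rpl5, which binds the 5S RNA, was 0.49 ± 0.36 higher in BD 3 (SE, limma, unadjusted p = 0.20). It stood at 0.22, 1.03, 0.09, -2.08 and 0.13 in CD 3 and at 0.39, 0.14, -0.09, 0.71 and 0.68 in BD 3. Without CD 3 rat 4 the difference was -0.01, so that 1 rat set it. Rpl15, with the dimmest probe, had the lowest difference (-0.48 ± 0.34) and stood at 1.92 on the same array. It gave -0.18 without that rat, and 0.69 with the slide as a block. Rpl37a (-0.31 ± 0.19) and Rpl14 (-0.31 ± 0.18), both large-subunit proteins, followed at the low end. Rpl37a was at -0.12 without CD 3 rat 4 and 0.02 with the slide as a block, and Rpl14 at -0.24 and -0.04. A second bright probe of Rpl37a, which has no value on CD 14 rat 4 and did not follow the first (r of -0.12 over 21 arrays), gave 0.31 in the opposite direction, and 0.40 for CD 14 against CD 3 where the first gave -0.0022, whereas that of Rpl14 gave -0.22.

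Diet at 14 months showed small differences, more often below 0. The median of BD 14 against CD 14 was -0.08, beside 0.05 over all probes, with 22 members higher and 62 lower. Under a stricter detection filter, which left 13860 probes, all probes had -0.0050 and the members the same -0.08. Both subunits lay alike, with 37 of 51 large and 25 of 33 small members lower. The interquartile range ran from -0.15 to 0.00, and in 83 of 84 members the 95% interval was within 2-fold, beside 63.1% of all probes. On centring each array on its median, 9 members were higher, with a median of -0.14, and with the Cy5 channel alone 46 were, with a median of 0.01. Leaving out 1 array moved the median between -0.12 (without CD 14 rat 2) and -0.04 (without CD 14 rat 3). Within slide C, which holds 6 BD 14 and 2 CD 14 rats, the median was -0.04, with 35 higher and 49 lower. At an unadjusted p of 0.05, none was higher, beside 3.79% of all probes, and 1 was lower, beside 0.803%. Under the stricter filter 251 of 13860 probes were higher and 147 lower. No member's groups stood clear of each other, beside 0.653% of probes higher and 0.113% lower.

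The member past that limit was Rps27, a zinc-finger protein of the small subunit. CD 14 rats ran from 0.02 through a median of 0.20 to 0.43, and BD 14 rats from -0.42 through -0.16 to 0.19. Of the 6 BD 14 rats, 5 lay below every CD 14 rat. The difference was -0.37 ± 0.16 (SE, limma, unadjusted p = 0.027, adjusted p = 0.95), and -0.30 on the second probe. It was -0.40 within slide C and with the slide as a block, and -0.23 with the Cy5 channel alone. With the slide as a block, however, a higher member passed that limit in place of Rps27. At 3 months the 5 CD 3 values were -0.28, -0.11, -0.03, 0.43 and 0.07, and the 5 BD 3 values 0.15, 0.26, -0.11, 0.63 and 0.28, which gave 0.23 ± 0.17 in the other direction.

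At the other end stood Rpl5 (0.39 ± 0.33), Rpl7l1 (0.35 ± 0.23), a nucleolar relative of Rpl7, and Rps4x (0.27 ± 0.24). For Rpl5, BD 14 rats ran from 0.63 through 0.78 to 1.00 and CD 14 rats from 0.01 through 0.42 to 0.79. CD 3 rat 4 is in neither group but widens the shared estimate of the spread, and without it the unadjusted p of Rpl5 was 0.048 in place of 0.25. Rpl39 (-0.27 ± 0.20) and Rpl22 (-0.26 ± 0.15), both large-subunit proteins, were lowest after Rps27, and both were above 0 with the Cy5 channel alone (0.03 and 0.11).

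Over time on control diet most members were higher. The median of CD 14 against CD 3 was 0.14, beside 0.03 over all probes, and 68 members were higher and 16 lower. Large members had a median of 0.14 (41 of 51 higher) and small ones of 0.12 (27 of 33 higher). The interquartile range lay between 0.02 and 0.25, and in 82 members the 95% interval was within 2-fold, beside 56.0% of all probes. At an unadjusted p of 0.05, 9 of 84 members were higher, beside 6.85% of all probes, and none was lower, beside 3.29%. Under the stricter detection filter 12 were higher, beside 966 of 13860 probes, and none was lower, beside 518. A slide block left 1 member past that limit in place of 9, and these groups share only slide E. Rps12, Rps24, Rpl12-ps1, Rpl12, Rps23, Rpl28, Rpl17, Rps6 and Rplp1 made up the 9. A second probe of Rpl17 did not follow the first (r of 0.05 over the 22 arrays). Probes of another name that share 35 and 25 bases with the first did (r of 0.95 and 0.98). In 2 members, Rpl28 and Rps16, every CD 14 rat lay above every CD 3 rat, beside 0.283% of all probes, and in none below, beside 0.232%. Rpl12-ps1, Rpl12, Rps23, Rpl28, Rpl17 and Rps16 were named after their values were seen.

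The shift of the set differed between settings, and the cause was not tested. When only the Cy5 signal was used, the median was -0.01 and 40 of 84 members were higher. After centring each array it was 0.10, with 59 higher. A slide block gave 0.22 beside 0.14 over all probes, with 82 higher. Within slide E, which holds 1 rat of each group, it was 0.22 beside -0.01 over all probes, with 75 higher. Without CD 3 rat 4 it was 0.17, with 71 higher.

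**Figure D3:**
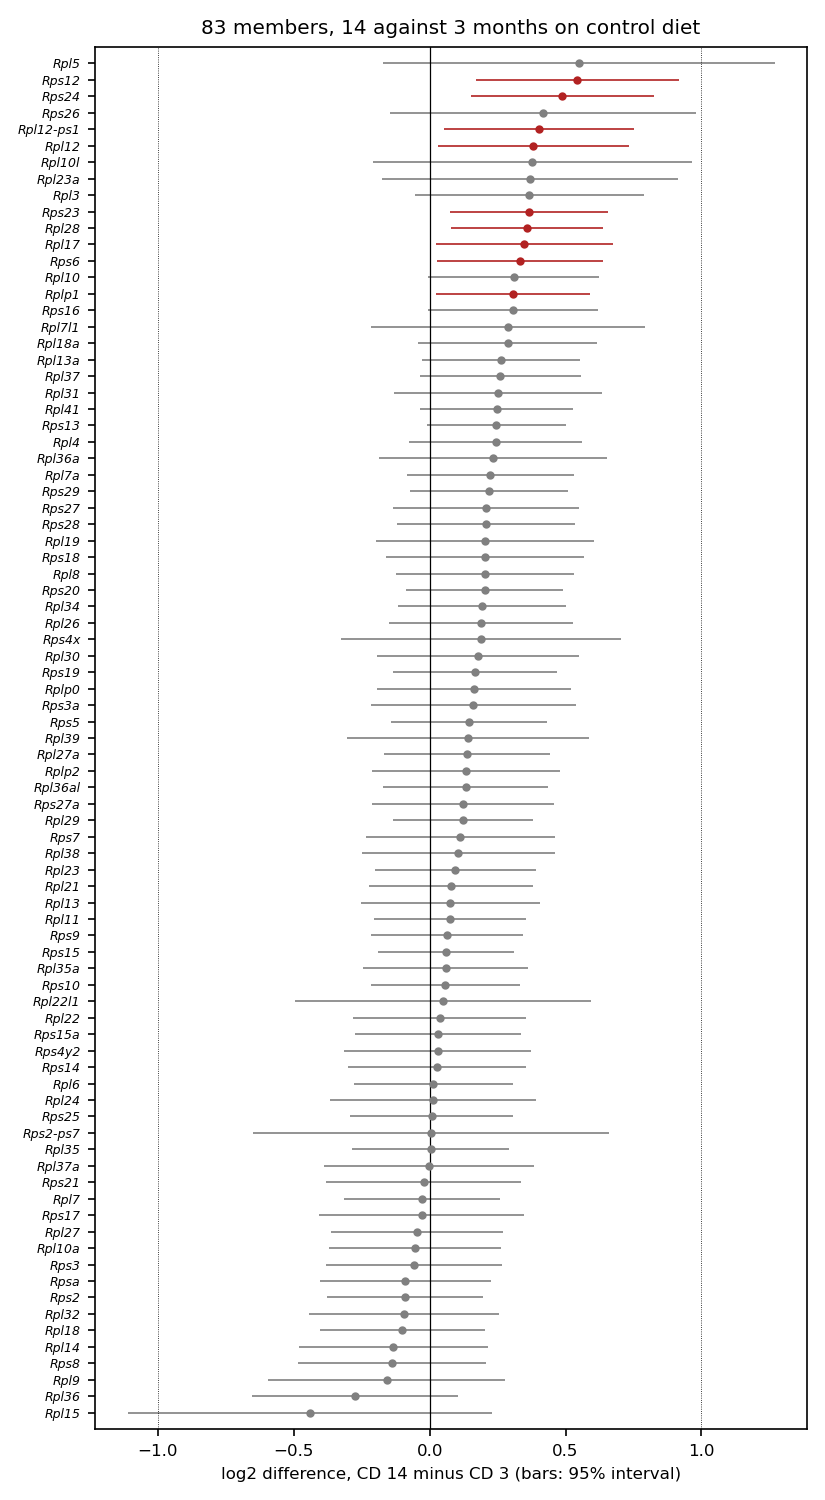
Log2 difference of CD 14 from CD 3 (x axis) with its 95% interval for 83 of the 84 members (y axis), sorted by size, with the 9 members at an unadjusted p of 0.05 in red and dotted lines at a 2-fold change. Of the 83 points, 67 lie above 0, and the intervals of Rpl5 and Rpl15 cross a dotted line.

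Rps24, a small-subunit protein, stood at -0.47, -0.69, -0.50, 0.06 and -0.21 in CD 3. In CD 14 it ran from -0.13 through 0.13 to 0.40, and 4 of the 6 rats lay above every CD 3 rat. The difference was 0.49 ± 0.16 (SE, limma, unadjusted p = 0.0067, adjusted p = 0.30), and 0.47 and 0.23 on the probes of another name that share 39 and 26 bases. It was 0.39 with the slide as a block, 0.30 with the Cy5 channel alone and 0.59 without CD 3 rat 4. Rps12 gave 0.54 ± 0.18 (SE, limma, unadjusted p = 0.0065, adjusted p = 0.30), 0.26 with the slide as a block and 0.20 with Cy5 alone.

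Rpl28, a large-subunit protein, stood at -0.14, 0.05, -0.03, -0.51 and 0.01 in CD 3 and from 0.11 through 0.24 to 0.40 in CD 14. All 6 CD 14 rats lay above the 5 CD 3 rats. The difference was 0.36 ± 0.13 (SE, limma, unadjusted p = 0.015, adjusted p = 0.37), 0.33 with the slide as a block and 0.21 on the second tested probe. Rps16, of the small subunit, stood at -0.22, -0.13, -0.02, -0.03 and -0.20 in CD 3 and from 0.06 through 0.09 to 0.53 in CD 14. Its groups were apart by less than 0.1, and the difference was 0.31 ± 0.15 (SE, limma, unadjusted p = 0.055, adjusted p = 0.51). A second, dimmer probe of Rps16 did not follow the first (r of -0.21 over the 22 arrays).

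Rps6, the substrate of S6 kinase in the small subunit, was higher at 14 months on both diets. CD 3 rats stood at -0.11, 0.11, 0.00, -0.41 and 0.05, and CD 14 rats ran from 0.03 through 0.27 to 0.50, with 5 of 6 above every CD 3 rat. BD 3 rats stood at 0.12, -0.07, -0.28, 0.23 and 0.15, and BD 14 rats ran from 0.16 through 0.35 to 0.55, with 4 of 6 above every BD 3 rat. The difference was 0.33 ± 0.15 on control diet (SE, limma, unadjusted p = 0.035, adjusted p = 0.45). On BASE-diet it was 0.33 ± 0.15 (SE, limma, unadjusted p = 0.036, adjusted p = 0.64). The second probe gave 0.30 and 0.37. With the slide as a block the differences were 0.28 and 0.34, and without CD 3 rat 4 the first was 0.25 (unadjusted p = 0.10).

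At the low end of this comparison stood Rpl15 (-0.44 ± 0.32), Rpl36 (-0.28 ± 0.18) and Rpl9 (-0.16 ± 0.21), all of the large subunit. The values of all 3 were highest in CD 3 on rat 4, at 1.92, 0.78 and 1.03. Without that rat Rpl9 was at 0.05, Rpl15 at -0.14 and Rpl36 at -0.11. With the slide as a block all 3 were above 0, at 0.16, 0.26 and 0.19 in the same order. Rpl5 again had the largest difference, 0.55 ± 0.35, which was 0.06 without it.

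**Figure D4:**
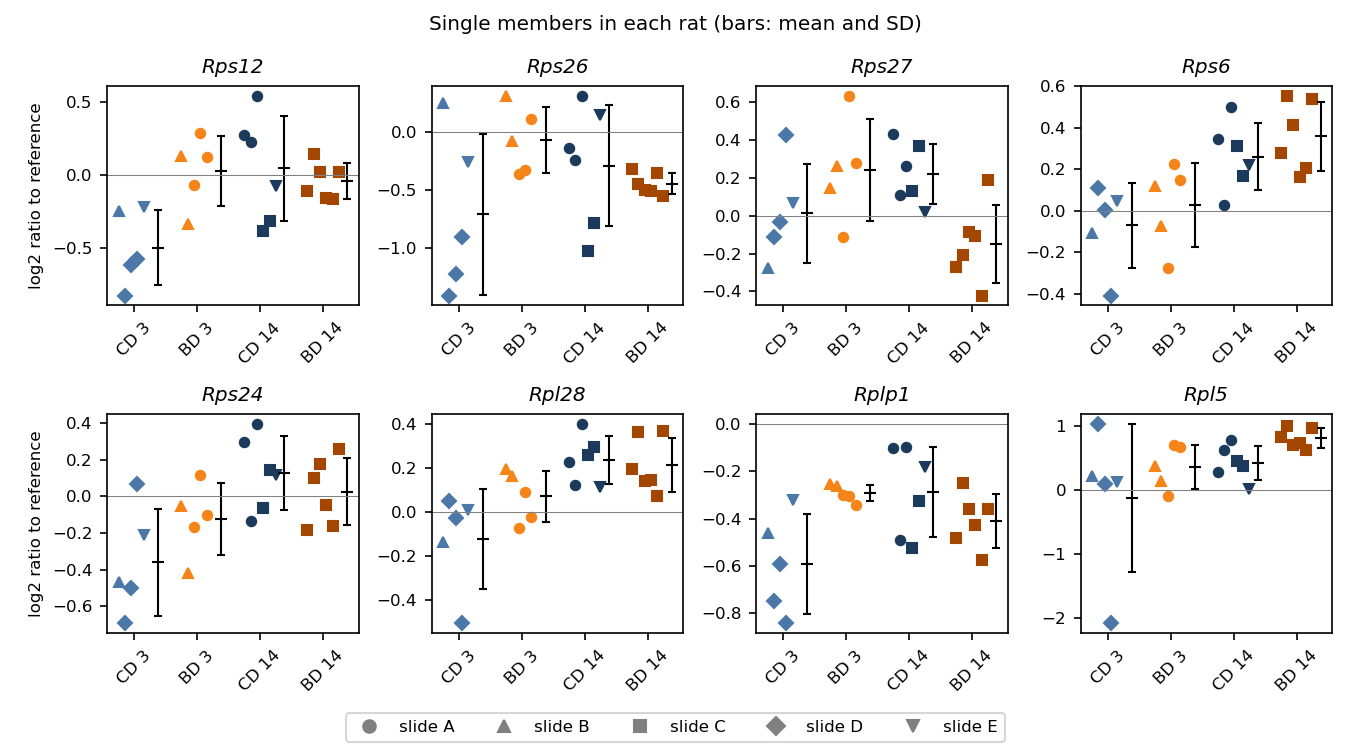
Log2 ratio to the reference (y axis) of 8 members in each rat of the 4 groups (x axis), with a symbol for each slide and a bar for the mean and SD. Rpl28 shows CD 14 wholly above CD 3, Rps26 and Rps12 show their lowest CD 3 values on slide D, and Rpl5 shows the single value of -2.08.

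For time on BASE-diet the set and all probes had similar medians in the ratios under the main detection filter. The median of BD 14 against BD 3 was 0.06, beside 0.07 over all probes, with 56 members higher and 28 lower. In 83 members the 95% interval was within 2-fold, beside 57.8% of all probes. After centring each array, 43 members were higher, with a median of 0.0041. It was 0.07 with the slide as a block and 0.06 with the Cy5 channel alone, where all probes had 0.0027 and -0.0027. Under the stricter detection filter it was still 0.06, beside 0.02 over all probes, and normexp with loess gave 0.06 beside 0.03. The median was 0.02 without BD 14 rat 6 (0.07 over all probes) or without BD 3 rat 2 or 3, and 0.10 without BD 3 rat 4. At an unadjusted p of 0.05, 2 members were higher, Rps6 among them, beside 4.76% of all probes, and Rps27 was lower, beside 2.68%. Under the stricter filter 342 of 13860 probes were higher and 495 lower, in place of 925 and 521 of 19434. No member separated the groups, beside 1.18% of probes higher and 1.08% lower. These groups share no slide, so that no within-slide value exists and slide and time cannot be told apart in a direct comparison.

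Rps27 was at -0.39 ± 0.16 (SE, limma, unadjusted p = 0.026, adjusted p = 0.60) between the BASE-diet groups, and -0.28 on its second probe. A fit with the slide as a block ties these groups only through slides that hold other groups. Rpl5 (0.45 ± 0.35) and Rpl23a (0.38 ± 0.26), which sits at the exit tunnel of the large subunit, were among the 3 highest. Rps26 (-0.38 ± 0.27) and Rps2 (-0.19 ± 0.14) were the other 2 lowest. With the slide as a block Rpl23a was at -0.37 and Rps26 at 0.69, both in the other direction, and Rps2 at -0.04.

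The interaction compares the diet difference at 14 months with that at 3 months. Its median over the members was -0.07, beside 0.02 over all probes, with 31 above 0 and 53 below. Under the stricter detection filter all probes had a median of -0.02 and the members again -0.07. In 78 members the 95% interval was within 2-fold, beside 33.0% of all probes. The median was 0.07 with the Cy5 channel alone (48 above 0) and -0.19 with the slide as a block (18 above 0). At an unadjusted p of 0.05, none was above 0, beside 2.48% of all probes (191 of 13860 under the stricter filter). Below 0 were 3 members, beside 2.32% of all probes. These were Rps27 (-0.60 ± 0.23), Rps12 (-0.61 ± 0.25) and Rplp1 (-0.42 ± 0.19). Under the stricter filter 4 members were below 0, beside 394 of 13860 probes. For Rps27 the limma fit gave an unadjusted p of 0.017 and an adjusted p of 0.99. Its diet difference was 0.23 at 3 and -0.37 at 14 months on the first probe, and the second probe gave an interaction of -0.39. With the Cy5 channel alone the interaction of Rps27 was 0.11. A slide block gave 0.25 for Rps12. Rps26 was lowest (-0.79 ± 0.38) and was 0.46 with the slide as a block. Rpl15 (0.54 ± 0.46) and Rpl14 (0.26 ± 0.24) were among the 3 highest. Rpl15 was at 0.24 without CD 3 rat 4 and -0.90 with the slide as a block, and Rpl14 at 0.11 with that block.

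**Figure D5:**
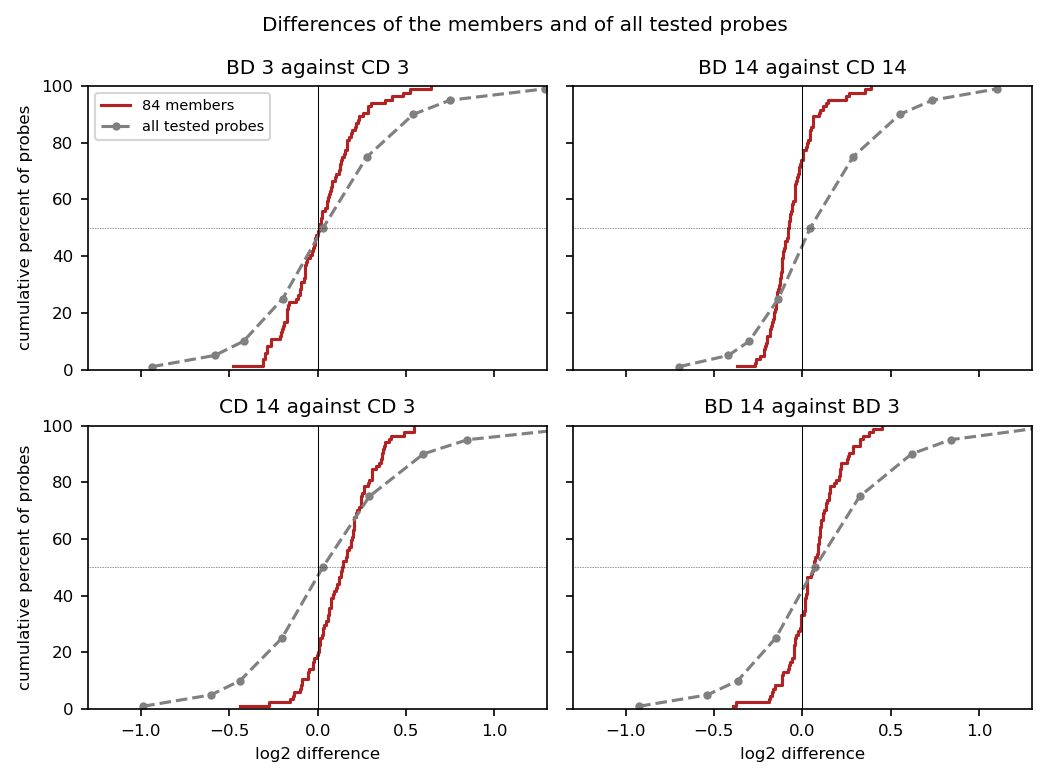
Cumulative percent of probes (y axis) against the log2 difference (x axis) in the 4 comparisons of one factor, with the 84 members in red and percentiles of all tested probes in grey. The red curves are steeper in all 4 panels; their medians are 0.01, -0.08, 0.14 and 0.06 where those of all probes are 0.03, 0.05, 0.03 and 0.07.

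By the moderated F test over the 4 groups, 5 members reached an unadjusted p of 0.05 (5.95%), beside 10.5% of all probes. They were Rps12 (unadjusted p = 0.024), Rps6 (0.029), Rps24 (0.038), Rpl12-ps1 (0.042) and Rpl3 (0.047), and their smallest adjusted p was 0.40. With the F test of the study's methods, 15 members reached an unadjusted p of 0.05, beside 2083 of 19434 probes. Rpl3, which lies near the peptidyl transferase centre, had control-diet means of -0.39 ± 0.48 (SD, n = 5) at 3 months and -0.02 ± 0.23 (SD, n = 6) at 14 months. Its BASE-diet means were -0.10 ± 0.27 (SD, n = 5) and 0.23 ± 0.23 (SD, n = 6).

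Other members known for particular roles in or outside the ribosome are given by their range. Rpl11, which binds the 5S RNA with Rpl5, ran from -0.13 to 0.43 over the 22 arrays, and its differences lay between -0.04 and 0.18. Rps3, near the mRNA entry, ran from -0.19 to 0.67. Rpl13a, known from interferon-driven translational silencing, ran from -0.57 to 0.12, and Rpsa, also known as a laminin receptor, from -0.63 to 0.05. Rps27a, made as a fusion with ubiquitin, ran from -0.30 to 0.46. Rps19, whose human counterpart is mutated in Diamond-Blackfan anaemia, ran from -0.28 to 0.49. Rpl10, which joins the large subunit late, stood at a mean of 0.41 in CD 14 and 0.11 in CD 3, a difference of 0.31 ± 0.15 (SE, limma, unadjusted p = 0.055, adjusted p = 0.51).

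Among the paralogues, Rpl22l1, Rpl7l1 and Rpl10l had a wider range than their partners. Rpl22l1, a paralogue of Rpl22, ran from -0.91 to 0.71, and Rpl22 from -0.28 to 0.62. Rpl7l1 ran from -1.74 to 0.41, and Rpl7 from -0.10 to 0.63. Rpl10l, a retrogene of Rpl10 known from testis, ran from -0.28 to 1.73, and Rpl10 from -0.21 to 0.68. The probes of these 3 paralogues were dimmer than those of their partners. Rpl36al, of the same brightness class as Rpl36a, ran from -0.41 to 0.52 and Rpl36a from -0.42 to 0.62. Rps4x, from -1.25 to 0.83, also had a wider range than its relative Rps4y2, from -0.42 to 0.55. No probe carried the names Rps27l or Rpl39l, the paralogues of Rps27 and Rpl39. None of the 10 genes whose ranges are given here reached an unadjusted p of 0.05 in any of the 4 comparisons, and the 95% intervals of these differences reached 0.27 to 0.61 to either side on the log2 scale.

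Where a member had further tested probes, 63 in all, their differences had the sign of the brightest probe in 42 of 63 for diet at 3 months and 43 for diet at 14 months. For time they did in 53 on control diet and 40 on BASE-diet. The median gap between 2 probes of a gene was 0.07 to 0.10. Members with and without a 5′ TOP run at the annotated start had similar medians. Some of those without have such a run within 5 bases of the start, so the split does not divide TOP mRNAs from others. In CD 14 against CD 3 the medians were 0.16 (24 members, 20 higher) and 0.13 (41 members, 35 higher). In BD 14 against CD 14 they were -0.08 (5 higher) and -0.10 (10 higher).

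The name rule leaves out ribosomal proteins with other names. Fau, which carries Rps30, was at 0.11 ± 0.14 for diet at 3 months, -0.08 ± 0.13 for diet at 14 months and 0.18 ± 0.14 for time on control diet. Rack1, listed under its older name Gnb2l1, was at -0.00 ± 0.41, 0.39 ± 0.38 and -0.03 ± 0.40 in the same order. Neither had an adjusted p under 0.71 in these comparisons.

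Other genes of ribosome production and use were described by lists. Elongation factors and other TOP mRNAs (16 tested) had medians of 0.11 for diet at 3 months, 0.01 for diet at 14 months and 0.12 for time on control diet, where 13 of 16 were higher. Initiation factors (28 tested) had medians of -0.07, 0.13 and -0.04, with 23 of 28 higher in BD 14 than in CD 14. Genes of RNA polymerase I and ribosome biogenesis (59 tested) had medians of -0.02, 0.19 and -0.08, with 51 of 59 higher in BD 14 than in CD 14. In that comparison 56.3% of all tested probes were higher (49.2% under the stricter detection filter), and 62 of 84 ribosomal proteins were lower. With the Cy5 channel alone more ribosomal proteins were higher than lower, as given above. The lists are given under the main setting only. At an unadjusted p of 0.05, 3 of these 59 were higher there and none was lower, beside 3.79% and 0.803% of all probes. Genes of mTOR and S6 kinase signalling (25 tested) had medians of 0.12, 0.01 and 0.18, with 18 of 25 higher in CD 14 than in CD 3. In BD 14 against BD 3 the medians of these 4 lists were 0.09 (10 of 16 higher), 0.25 (23 of 28), 0.14 (44 of 59) and -0.06 (11 of 25). No gene of these lists had an adjusted p under 0.05.

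Markers of other cell types are given beside the set. In CD 14 against CD 3, 5 of 6 tested leukocyte markers were higher (median of 0.74), 4 of 4 endothelial markers (0.44), 5 of 6 stellate and fibroblast markers (0.31), 3 of 4 red cell markers (0.30) and 2 of 3 bile duct markers (0.29). Hepatocyte markers were higher in 9 of 10 (0.32). The mean log2 ratios of the leukocyte markers ran from -2.13 to 0.04 over CD 3 rats and from -0.49 to 0.26 over CD 14 rats. On BASE-diet they ran from -1.63 to -0.11 at 3 months and from -0.98 to 0.24 at 14 months. In BD 14 against CD 14 the medians were -0.14 for hepatocyte, -0.13 for leukocyte, -0.36 for endothelial, -0.36 for red cell and 0.29 for bile duct markers. For stellate and fibroblast markers the median there was 0.01, with 3 higher and 3 lower. Red cell and bile duct markers differed more in other comparisons. Red cell markers had a median of -0.75 in BD 3 against CD 3 (0 of 4 higher) and 0.79 in BD 14 against BD 3 (4 of 4). Bile duct markers had -0.32 (1 of 3) and 0.73 (3 of 3). None of these markers had an adjusted p under 0.05. Their part in the values of the ribosomal proteins was not tested. In whole liver, fewer cells of a type and less RNA per cell cannot be told apart.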

How the data were processed

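RNA of 22 rat livers was hybridised to 2-colour arrays annotated to the rn4 build. Agilent Feature Extraction 10.7.3.1 was named in the sources. The authors deposited, for each array, log10 ratios of Cy5 to Cy3 and the intensity of each channel, background-subtracted and dye-normalized; a table of their selected genes was not used, because it was selected on the outcome. Log ratios were turned to log2, control spots and spots marked non-uniform were dropped, and the rest of the 58717 non-control spots per array were averaged by probe. Of 30367 probes, 19434 were tested, namely those with at least 0.5 of their spots well above background on every array of a group.

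Group means were fitted with limma 3.58.1 in R 4.3.3, with eBayes and Benjamini-Hochberg adjustment over all tested probes. Python 3.11.15, pandas 2.3.3 and numpy 2.4.6 were used for the rest. The number of arrays limits the precision. The members, lists and tests were chosen with earlier results of these data known. Named genes were members with fixed roles, paralogues, the 3 highest and 3 lowest differences in each comparison and mean ratios, and the 3 smallest p of the F test. Other members were named after their values were seen. Alternatives were array centring, array weights, slide or replicate number as a block, the Cy5 channel alone and normexp with loess. Others were the methods' tests, leaving out arrays, a stricter detection filter (13860 probes) and no such filter (30367 probes). The fit was also run on simulated data, with no result given here. The values of some genes are not reported here.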

Additional observations from a re-analysis of the deposited data

Results flagged for a closer look

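The values of 1 gene, or of the member median, in 1 group made 144 sets of 5 or 6 values. In 7 of them a single array lay far from the others by Dixon's criterion, and chance alone gives about 1 in 20. Rpl10l stood at 1.73 on CD 14 rat 6, with the other 5 rats between 0.31 and 0.72. Rpl36al stood at 0.52 on the same array, with the others between -0.06 and 0.14. On BD 14 rat 6, Rpl23a stood at 1.06 (others 0.47 to 0.63) and Rpl37a at 0.31 (others -0.18 to -0.09). Rpl13a stood at -0.35 on CD 14 rat 2 (others -0.05 to 0.07). Rpl7 stood at 0.63 on CD 3 rat 4 (others 0.21 to 0.33), and Rplp2 at -0.74 on CD 3 rat 1 (others -0.13 to 0.09).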

How the results depend on the processing

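No member passed an adjusted p of 0.05 under any setting (smallest 0.11). Of 1003 alternative values for 28 named differences 986 kept their direction and 17 reversed, but many of the 1003 could not reverse. A detection filter, a fit of only the groups compared, or leaving out an array of another group does not change a difference of group means. The reversals with the slide as a block are listed below. The counts at an unadjusted p of 0.05 were less stable. For diet at 3 months (4 members) they were 1 with centred arrays, 1 with the slide as a block, 2 with the replicate block, 10 with the Cy5 channel alone, 1 with only the groups compared and 2 with the methods' Tukey test, and 1 to 7 leaving out 1 array. The slide block gave 1 for diet at 14 months as well, but a higher member in place of the lower Rps27. For diet at 14 months (1) they were 2 with array weights, 3 with Cy5 alone, 4 with normexp and loess, 3 with only the groups compared and 0 without CD 3 rat 1 and CD 14 rat 1, which had over 4% non-uniform spots (an alternative chosen after seeing the data), and 0 to 3 leaving out 1 array. For time on control diet (9) they were 5 with centring, 5 with weights, 1 with the slide, 5 with the replicate block, 5 with Cy5, 15 with normexp and loess, 2 with only the groups compared and 14 without those 2 arrays, and 4 to 14 leaving out 1 array (14 without CD 3 rat 1). For time on BASE-diet (3) they were 1 with centring, 6 with weights, 1 with the slide, 1 with the replicate block, 11 with Cy5 and 7 with only the groups compared, and 1 to 4 leaving out 1 array. For the interaction (3) they were 5 with weights, 0 with the slide, 5 with Cy5 and 8 with normexp and loess, and 1 to 5 leaving out 1 array. For the F test (5) they were 2 with centring, 1 with weights, 1 with the slide and 0 with the replicate block. They were 9 with normexp and loess, 15 with the methods' F test and 2 to 7 leaving out 1 array. Counts over all 19434 probes moved too. For the F test they were 2038, with 1963 with centring, 1028 with weights and 2083 with the methods' F test. For diet at 3 and 14 months and time on control diet and BASE-diet they were 1360, 859, 1914 and 1452 with centring. With weights they were 897, 2097, 1191 and 2976 in the same order. Where no such count is given, the member count stands without a share of all probes. Medians moved for diet at 3 months to 0.15 (slide), for time on control diet to -0.0085 (Cy5), and for the interaction to -0.19 (slide) and 0.074 (Cy5). Smaller moves were, for diet at 14 months, -0.14 (centred) and 0.011 (Cy5, sign turned) and, for time on BASE-diet, 0.0041 (centred), 0.020 (array weights) and 0.031 (replicate block). Leaving out 1 array, the medians ran from -0.039 to 0.046 and -0.12 to -0.041 for diet at 3 and 14 months. They ran from 0.10 to 0.18 and 0.017 to 0.097 for time on control diet and BASE-diet, and from -0.12 (without CD 14 rat 2) to -0.028 (without CD 3 rat 1) for the interaction.

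With the slide as a block these reversed: for diet at 3 months Rps26 (-0.0023), Rpl5 (-0.067), Rpl15 (0.69) and Rpl37a (0.019); for time on control diet Rpl15 (0.26), Rpl36 (0.19) and Rpl9 (0.16). For time on BASE-diet Rpl23a (-0.37) and Rps26 (0.69) did, and for the interaction Rpl15 (-0.90), Rps26 (0.46) and Rps12 (0.25). With Cy5 alone Rpl39 (0.032) and Rpl22 (0.11) reversed for diet at 14 months and Rps27 (0.11) for the interaction. Leaving out 1 array, Rpl5 ran from -0.0053 to 0.77 for diet at 3 months and Rpl9 from -0.30 to 0.046 for time on control diet. The cause was not tested. The replicate numbers name different animals, same-numbered arrays had r from -0.26 to 0.29, and they were not taken as pairs.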
